A study of Mus musculus with 26 samples.

Results

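The genes described here are 38 components of the autophagy pathway, namely its machinery and the receptors that bring cargo to it. They were listed by gene symbol and grouped by their step in the pathway. The rule uses no measured value, but the list was chosen with earlier results of these data known. All 38 symbols were found among the 23420 in the table, and all 38 passed the filter that left 13311 genes for testing (a normalized count of at least 10 in at least 2 libraries). They comprise 4 genes of the initiation complex, 6 of the nucleation complex, 6 for membrane supply and lipid transfer, 11 for conjugation, 5 of the LC3 and GABARAP family and 6 cargo receptors.

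RNA sequencing was done on antigen-presenting cells sorted from mice labelled mTORΔAPC, called KO here, and from wild-type littermates, called WT. Untreated mice gave spleen CD8a dendritic cells (DCs) and spleen CD11b DCs, each with 2 KO and 2 WT libraries, and lung CD11b DCs and alveolar macrophages, each with 3 KO and 3 WT libraries. Lung inflammatory DCs, with 3 KO and 3 WT libraries, came from mice given house dust mite extract into the nose (25 µL at 1 mg/mL protein), with day 17 named in the labels but day 18 in the protocol. The Cre driver, the floxed allele, age, sex and number of animals per library are not given in the sources used here, so p-values measure the spread between these libraries only.

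The 26 libraries held 7.37 to 14.1 M reads, with 12992 to 14407 genes above 0. Mtor was lower in every KO library than in every WT library of its cell type, but less so in lung CD11b DCs, at 169 to 316 in KO against 364 to 476 in WT, and in inflammatory DCs, at 196 to 236 against 336 to 404. Summed reads of 4 Y-linked genes were at most 2.28 in every untreated WT library and 659.5 to 3295 in every KO library of the spleen DCs and alveolar macrophages. Genotype and the sex of the mice cannot be told apart in those 3 cell types. In lung CD11b DCs, KO replicate 1 alone held Y-linked reads, and all 6 inflammatory DC libraries held them. Spleen CD8a DCs held the cDC1 markers and alveolar macrophages the alveolar macrophage markers. Inflammatory DCs held the DC markers Zbtb46 at 26.4 to 111 and Flt3 at 20.1 to 170 and the macrophage gene Mertk at 2822 to 3386. These genes were picked from lists of 7 markers common to cDCs and 14 of monocytes and macrophages. They do not settle the identity of these cells. In bulk samples such as these, fewer cells of a type and less RNA per cell cannot be told apart.

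Autophagy encloses cytoplasm in a double membrane and delivers it to lysosomes. The kinase complex mTORC1 restrains it by phosphorylating ULK1 and ATG13 and by keeping the transcription factors TFEB and TFE3 out of the nucleus. A lipid kinase complex then marks the membrane, ATG9A and ATG2 proteins supply lipid, and conjugation enzymes attach LC3 and GABARAP proteins to it, which bind cargo receptors. In antigen-presenting cells the pathway handles ingested microbes and feeds peptides to MHC class II.

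The regions upstream of 5 members are shown because Optn and Gabarapl1 are 2 of the 5 members that passed the test in more than 1 KO comparison, chosen after their values were seen, Atg5 and Bnip3 passed it in 1 and hold the E-box core CACGTG, and Atg3 holds the CLEAR core TCACGTGA, the site known for TFEB and TFE3. The sequences are RefSeq windows of 250 bases before the start on GRCm38.p6, cut where a GENCODE transcript begins, written 5′ to 3′ on the gene's strand with motifs in capitals. Optn (chr2:5064118-5064367, minus strand) and Gabarapl1 (chr6:129532942-129533159, plus strand) held none of the motifs searched.
Optn: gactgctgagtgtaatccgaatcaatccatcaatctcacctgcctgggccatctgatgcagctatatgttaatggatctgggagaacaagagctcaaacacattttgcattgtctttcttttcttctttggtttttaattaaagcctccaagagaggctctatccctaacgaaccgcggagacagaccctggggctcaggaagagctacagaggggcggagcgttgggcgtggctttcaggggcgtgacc
Gabarapl1: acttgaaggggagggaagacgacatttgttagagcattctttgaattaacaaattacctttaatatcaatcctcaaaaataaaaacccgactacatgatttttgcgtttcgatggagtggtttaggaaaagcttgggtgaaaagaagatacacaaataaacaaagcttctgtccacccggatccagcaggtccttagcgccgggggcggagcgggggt
Atg5 (chr10:44268089-44268338, plus strand) held CACGTG with its first base 14 bases before the RefSeq start, and Bnip3 (chr7:138909520-138909756, minus strand) held it 108 bases before.
Atg5: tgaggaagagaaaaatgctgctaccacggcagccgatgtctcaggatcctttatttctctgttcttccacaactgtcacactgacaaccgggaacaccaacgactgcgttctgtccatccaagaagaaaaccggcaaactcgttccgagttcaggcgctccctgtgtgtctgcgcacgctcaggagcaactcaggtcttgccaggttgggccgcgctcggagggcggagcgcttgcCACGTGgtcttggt
Bnip3: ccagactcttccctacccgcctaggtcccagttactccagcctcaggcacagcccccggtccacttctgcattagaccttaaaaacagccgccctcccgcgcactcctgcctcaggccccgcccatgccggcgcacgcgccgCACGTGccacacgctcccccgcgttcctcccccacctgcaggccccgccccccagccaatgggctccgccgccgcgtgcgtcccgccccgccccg
Atg3 (chr16:45158579-45158784, plus strand) held CACGTG 94 and 71 bases before its start, the second within TCACGTGA.
Atg3: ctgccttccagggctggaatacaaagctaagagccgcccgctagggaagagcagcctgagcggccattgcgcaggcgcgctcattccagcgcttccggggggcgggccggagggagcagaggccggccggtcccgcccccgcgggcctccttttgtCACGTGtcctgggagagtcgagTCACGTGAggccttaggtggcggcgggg
The table held windows for 31 of the 38 members, 37 windows in all. On either strand, CACGTG was in 4 of the 37 (Atg3, Atg5, Atg7 and Bnip3) and in 6.02% of 32851 mouse windows, and TCACGTGA, which contains it, was in 1 of 37 and in 0.785%. The antioxidant response element core TGACNNNGC was in 6 windows (of Atg13, Tax1bp1, Ulk2 and Vmp1) and in 10.2% of all. The CHOP-ATF core TTGCATCA, in 0.791% of all, and the interferon-stimulated response element core, in 2.98%, were in none of the 37. A match describes these letters only.

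In WT cells most autophagy genes had their highest level in alveolar macrophages or inflammatory DCs. Of the 38, 15 had their highest WT mean in alveolar macrophages and 14 in inflammatory DCs, against 22.0% and 19.5% of all tested genes, and 4, 3 and 2 were highest in spleen CD11b DCs, spleen CD8a DCs and lung CD11b DCs. The lowest mean lay in spleen CD11b DCs for 13 members and in spleen CD8a DCs for 11. The median ratio of highest to lowest WT mean was 1.88, against 2.75 for all tested genes, and it was under 2 for 21 members (55.3%, against 34.1% of all genes). The members and all tested genes were not matched for expression level, so these figures do not set a trait of autophagy genes apart from level. Among the members the ratio ran from 1.06 for Becn1, the scaffold of the lipid kinase complex, to 43.3 for Wipi1, which binds the lipid that this complex makes.

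**Figure D1:**
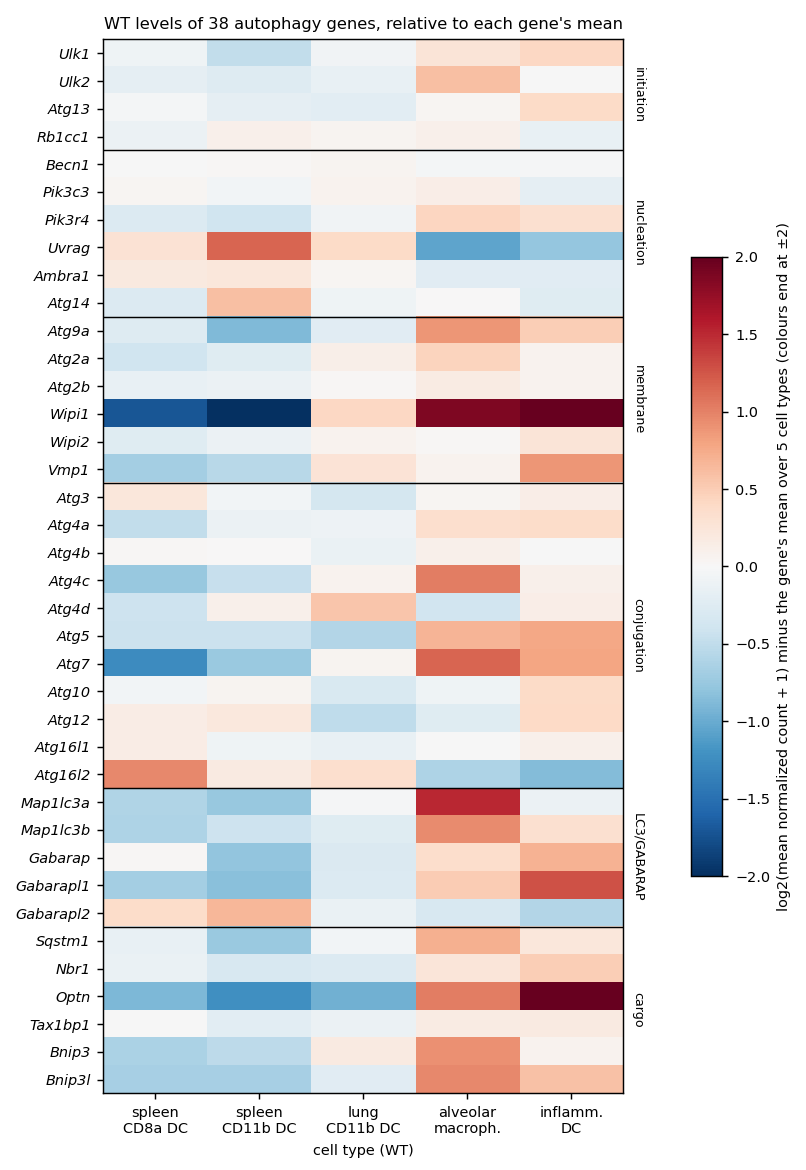
Rows are the 38 genes grouped by step and columns the 5 WT cell types. Colour gives log2(mean normalized count + 1) minus the gene's mean over the 5 cell types, from blue (lower) to red (higher), and most rows are reddest in alveolar macrophages or inflammatory DCs, while Uvrag and Gabarapl2 are reddest in spleen CD11b DCs.

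Per kilobase of annotated exon, Gabarap had the highest level of the 38 in each of the 5 WT cell types, from 1086 normalized counts per kb in spleen CD11b DCs to 3071 in inflammatory DCs. Sqstm1, Tax1bp1 and Atg3 were among the 5 highest in all 5 cell types. Sqstm1 encodes p62, a receptor for ubiquitin-tagged cargo, and stood at 1491 per kb in alveolar macrophages and 545 in spleen CD11b DCs. Uvrag, a subunit of a late-acting form of the lipid kinase complex, ranked behind only Gabarap and Tax1bp1 in spleen CD11b DCs, at 720.1 per kb. At the other end, Wipi1 stood at 0.525 per kb in spleen CD11b DCs. Atg4a, a protease that processes LC3 and GABARAP proteins, was among the 3 lowest in all 5 cell types.

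Against WT lung CD11b DCs, WT alveolar macrophages were higher for 17 members and lower for 3 (20 of 38 called, against 51.2% of all tested genes; 24% of all genes were higher and 27.2% lower). The overall share lay near that of all genes, while the calls leaned to the higher side. Among the higher members the smallest p-values were those of Map1lc3b, which encodes LC3B (log2 difference 1.20, limma adjusted p = 1.77e-11), Atg7, the E1-like enzyme of both conjugation systems (1.11, adjusted p = 1.22e-09), Bnip3l, a mitophagy receptor also called NIX (1.19, adjusted p = 2.86e-09), and Atg5, part of the E3-like conjugation complex (1.27, adjusted p = 1.08e-08). Uvrag was lower, at -1.42 (adjusted p = 3.07e-10), as were Atg4d at -0.92 and Atg16l2 at -0.97 (adjusted p = 2.11e-05 and 0.00117).

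WT inflammatory DCs, which also differ from untreated lung CD11b DCs by the allergen and by Y-linked reads, were higher for 17 members and lower for 4 (21 of 38, against 47.5% of all genes; 23.7% higher and 23.8% lower). Atg5 was higher by 1.35 (limma adjusted p = 7.78e-09), Gabarapl1 by 1.54 (adjusted p = 8.29e-08), Optn by 3.13 (adjusted p = 2.02e-07) and Gabarap by 0.99 (adjusted p = 2.34e-07) on the log2 scale. Lower were Uvrag at -1.14 (adjusted p = 2.47e-08), Atg16l2 at -1.19 (adjusted p = 0.000167), Gabarapl2 at -0.46 (adjusted p = 0.0244) and Atg4d at -0.40 (adjusted p = 0.0374). The last 2 lost their calls without lung CD11b DC WT replicate 3 or inflammatory DC WT replicate 3 (adjusted p = 0.112 to 0.206), and Atg4d also without inflammatory DC WT replicate 1 (0.0801). With a term for Y-linked reads, 14 of the 21 calls remained, without Atg16l2 (adjusted p = 0.106). That term used a single slope for all groups, set largely by KO lung CD11b DCs. Their Y-linked sums were 1318 in replicate 1 and 0.821 and 1.35 in replicates 2 and 3. Results with the term thus carry that library's values to other cell types and do not separate sex from the groups compared. This comparison and the previous one share their WT lung CD11b DC libraries.

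WT lung CD11b DCs were higher than WT spleen CD11b DCs for 11 members and lower for 4 (15 of 38, against 34.9% of all genes, 21.1% higher and 13.8% lower). Atg7 was higher by 0.79 and the membrane protein gene Vmp1 by 0.82 (limma adjusted p = 3.66e-06 and 7e-06), followed by Wipi1 at 3.63 and Sqstm1 at 0.66 (adjusted p = 0.000244 and 0.00343). The Wipi1 value depends on the added 1, since the spleen libraries held 4.49 and 0 against 26.0, 31.7 and 26.6 in lung. Lower in lung were Uvrag (-0.80, adjusted p = 2.82e-05), Atg12, the ubiquitin-like protein joined to ATG5 (-0.72, adjusted p = 0.00104), Gabarapl2 (-0.80, adjusted p = 0.00141) and Atg14 (-0.68, adjusted p = 0.033). Without spleen CD11b DC WT replicate 2, 9 members were called, and the calls of Sqstm1 (adjusted p = 0.0895) and Gabarapl2 (0.0534) were lost, while that of Atg14 was lost without spleen replicate 1 (0.269) or lung replicate 2 (0.121).

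Between the 2 WT spleen DC types, 3 members were higher in CD8a DCs and 3 lower (6 of 38, against 23% of all genes, 12.2% higher and 10.8% lower). Gabarap was higher by 0.82 (limma adjusted p = 0.000127), with Sqstm1 at 0.59 and Atg9a at 0.64 (adjusted p = 0.0214 and 0.037). Uvrag was lower, at -0.87 (adjusted p = 5.6e-05), with Atg7 at -0.52 and Atg14 at -0.85 (adjusted p = 0.00197 and 0.0214). The call of Sqstm1 was lost without CD8a replicate 1 or CD11b replicate 2 (adjusted p = 0.28 and 0.213). That of Atg9a was lost without either CD8a library or CD11b replicate 2 (0.0667 to 0.299), and that of Atg14 without either CD8a library or CD11b replicate 1 (0.0666 to 0.194). Summed red pulp macrophage markers were 28143 to 48968 in these WT CD8a libraries and 3599 to 5206 in WT CD11b DCs, and their part in the differences was not tested.

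In KO against WT, 15 of the 38 members passed the test in at least 1 cell type, 5 of them in more than 1, and 23 in none. Lung CD11b DCs had 7 higher and 4 lower members (28.9%, against 26.1% of all tested genes, 12% higher and 14% lower). Alveolar macrophages had 4 higher and 3 lower (18.4%, against 16.9% of all genes, 10.5% higher and 6.39% lower). Both shares were close to the background, so the counts say nothing particular about autophagy genes. Spleen CD8a DCs had 1 lower member (2.63%, against 5.13% of all genes, 1.5% higher and 3.63% lower). Spleen CD11b DCs had 1 higher member (against 1.52%, 1.28% higher and 0.233% lower), as had inflammatory DCs (against 3.37%, 1.45% higher and 1.92% lower). At an unadjusted p under 0.05 there were 13 members in lung CD11b DCs (34.2%, against 37.5% of all genes), 13 in alveolar macrophages (34.2%, against 27.6%) and 11 in spleen CD8a DCs (28.9%, against 17.4%). Spleen CD11b DCs had 8 by that measure (21.1%, against 12.5%) and inflammatory DCs 3 (7.89%, against 13.7%). The median log2 fold change of the 38 was -0.02 in lung CD11b DCs and 0.06 in alveolar macrophages, with -0.05 and 0.02 over all genes, and it lay between 0.03 and 0.08 in the other 3 cell types.

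Regardless of the test, KO libraries lay above every WT library for 15 members in spleen CD8a DCs and below for 7, against 23.1% and 23.6% of all tested genes. The counts were 15 above and 6 below in spleen CD11b DCs (24.5% and 23.5% of all genes) and 5 above and 3 below in lung CD11b DCs (13.6% and 15%). They were 7 above and 8 below in alveolar macrophages (23.1% and 21.5%) and 4 above and 4 below in inflammatory DCs (9.83% and 11.1%). With 2 libraries a group, as in spleen, such separation is common among all genes.

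**Figure D2:**
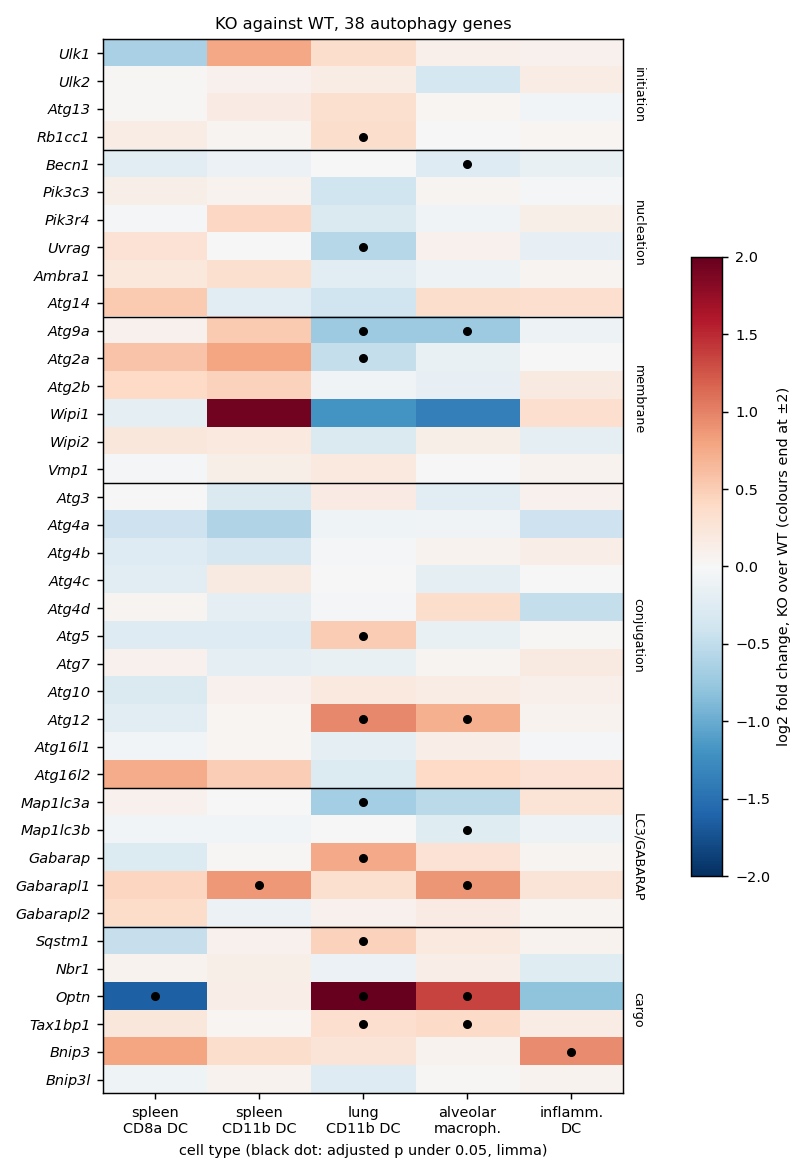
Rows are the 38 genes grouped by step and columns the 5 cell types. Colour gives the log2 fold change of KO over WT and a black dot marks an adjusted p under 0.05 in limma, and the 21 dots lie mostly in lung CD11b DCs (11) and alveolar macrophages (7), with Optn, Atg12, Tax1bp1, Gabarapl1 and Atg9a dotted more than once.

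Levels of other cell markers also differed between KO and WT libraries. Markers are counted as higher or lower where all KO libraries lay above or below all WT libraries. Among all tested genes the shares above and below were 23.1% and 23.6% in spleen CD8a DCs and 24.5% and 23.5% in spleen CD11b DCs. They were 13.6% and 15% in lung CD11b DCs, 23.1% and 21.5% in alveolar macrophages and 9.83% and 11.1% in inflammatory DCs. In lung CD11b DCs, 7 of 14 monocyte and macrophage markers were above all WT libraries in every KO library and 2 below, with summed levels of 99507 to 138921 in KO and 94394 to 102196 in WT. Fcgr1, which encodes the Fc receptor CD64, stood at 206, 144 and 378 in WT against 1180.1, 1865 and 1755 in KO, while 3 of 9 cDC2 markers were below all WT libraries. The sum of the cDC2 markers was 61910.4 to 68879.8 in WT and 23547 to 34136 in KO. Of 10 alveolar macrophage markers in lung CD11b DCs, 5 were below all WT libraries and 0 above. Of 7 markers common to cDCs, 3 were below there and 2 above. In alveolar macrophages the sum of 10 alveolar macrophage markers was 295261 to 305015 in WT and 170196 to 189965 in KO, with 6 lower and 4 higher, and 7 of 14 monocyte and macrophage markers were higher and 2 lower (263478 to 266469 in WT and 194691 to 212915 in KO, summed). In inflammatory DCs 4 of the 14 were higher and 1 lower (211761 to 253543 in WT and 285417 to 347985 in KO). There 5 of 9 cDC2 markers were lower and 1 higher, and 4 of 7 markers common to cDCs were lower and 1 higher. Among spleen CD8a DCs all 8 red pulp macrophage markers were lower in KO, at 4897 to 5358 summed against 28143 to 48968 in WT. Also lower there were 5 of 9 cDC2 markers, with 1 higher, and 4 of 6 B cell markers, with none higher. Of the 14 monocyte and macrophage markers in spleen CD8a DCs 10 were lower and 1 higher, at 5818 to 6245 summed in KO against 16138 to 22456 in WT. In the same cells 6 of 7 markers common to cDCs were higher and 1 lower. In spleen CD11b DCs 5 of those 7 and 4 of 8 red pulp macrophage markers were higher in KO and none lower, the latter at 5529 to 6241 summed against 3599 to 5206 in WT. Of 9 cDC2 markers in spleen CD11b DCs 4 were lower and 2 higher, and of 9 cDC1 markers 4 were higher and 0 lower. Of 6 B cell markers 3 were lower there and 1 higher. In alveolar macrophages 5 of 6 T cell markers were higher and 1 lower, while their sum was 3802 to 3957 in WT against 2631 to 3033 in KO. None of the markers of the lists given with summed levels was at 0 throughout a group whose sum is named with it here. Their part in the autophagy results below was not tested.

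The initiation complex joins the kinases encoded by Ulk1 and Ulk2 to Atg13 and Rb1cc1, its adaptor and scaffold. Rb1cc1 rose in KO lung CD11b DCs, and no other member of the complex passed the test in any cell type. Its normalized counts were 914, 761 and 664 in WT against 902, 1063 and 1003 in KO, a log2 fold change of 0.35 ± 0.12 (SE) with limma adjusted p = 0.0268. The groups overlapped, since WT replicate 1 lay above KO replicate 1, and without WT replicate 2 or 3 or KO replicate 2 or 3 the call was lost (adjusted p = 0.0659 to 0.14).

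Ulk1 in spleen CD8a DCs stood at 272 and 178 in WT against 140.5 and 138 in KO. Its spleen CD11b DC values were 229.7 and 110.0 in WT against 287 and 257 in KO. The KO libraries were all below WT in the first and all above in the second, but neither comparison passed (log2 fold changes -0.66 and 0.77, limma adjusted p = 0.192 and 0.183). Ulk1 in lung CD11b DCs was 251, 159 and 272 in WT against 240.3, 337 and 283 in KO, and in alveolar macrophages 296, 279 and 286 in WT against 281, 294 and 355 in KO. Inflammatory DCs held 329.8, 306 and 319 in WT against 347, 338 and 329 in KO. The 95% intervals of the log2 fold change were -0.10 to 0.82, -0.35 to 0.56 and -0.37 to 0.54 in these 3 cell types. Ulk2 had log2 fold changes of -0.35 to 0.15 over the 5 cell types and Atg13 of -0.05 to 0.32.

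The nucleation complex consists of the lipid kinase Pik3c3, its regulatory subunit Pik3r4, the scaffold Becn1 and either Atg14 or Uvrag, with Ambra1 as a regulator. Uvrag fell in KO lung CD11b DCs and Becn1 fell slightly in KO alveolar macrophages. Uvrag counts in lung CD11b DCs were 2500.3, 2209.9 and 1741 in WT against 1706, 1348 and 1286 in KO (log2 fold change -0.57 ± 0.11 (SE), limma adjusted p = 0.000779, or 0.122 fitted on these libraries alone). All 3 KO libraries lay below the lowest WT library. In spleen CD11b DCs, where Uvrag was most abundant, the counts were 3609 and 3818 in WT against 3566 and 3792 in KO, and the interval of the log2 fold change was -0.30 to 0.28.

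Becn1 in alveolar macrophages was 1019.9, 996 and 938 in WT against 855, 762 and 866 in KO, without overlap (log2 fold change -0.25 ± 0.09 (SE), limma adjusted p = 0.0476). Omitting any single library ended the call (adjusted p = 0.0551 to 0.232), as did edgeR on recovered reads (0.0712). With a term for Y-linked reads the log2 fold change was -0.38 (adjusted p = 0.1). That term was set largely by KO lung CD11b DC replicate 1 and does not separate sex from genotype in alveolar macrophages. Becn1 overlaps Cntd1 on the opposite strand. Whether reads were counted by strand is not given in the sources used here, so such overlapping pairs cannot be told apart with certainty. Pik3c3 had log2 fold changes of -0.40 to 0.11, Pik3r4 of -0.28 to 0.41, Ambra1 of -0.23 to 0.32 and Atg14 of -0.40 to 0.52, none of which passed. Pik3c3 in KO lung CD11b DCs spread from 255 to 716, the widest of the 10 groups for that gene.

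Membrane for the growing autophagosome comes from vesicles carrying the lipid scramblase ATG9A and through the lipid-transfer proteins ATG2A and ATG2B, while WIPI1 and WIPI2 read the lipid mark and VMP1 acts at the endoplasmic reticulum. Atg9a fell in KO lung CD11b DCs and in KO alveolar macrophages. Atg9a counts in lung CD11b DCs were 299, 246 and 352 in WT against 255, 161 and 140.3 in KO, where KO replicate 1 overlapped WT (log2 fold change -0.72 ± 0.18 (SE), limma adjusted p = 0.00441, or 0.193 fitted on these libraries alone). In alveolar macrophages they were 662, 634 and 636 in WT against 380.5, 368 and 419 in KO, with every KO library well below every WT library (log2 fold change -0.73 ± 0.18 (SE), adjusted p = 0.00521). In inflammatory DCs they overlapped, at 514, 405 and 556 in WT against 502, 411 and 449 in KO. Atg9a overlaps Ankzf1 on the opposite strand and Gm29253 on the same strand.

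Atg2a fell in KO lung CD11b DCs, from 704, 822 and 498 in WT to 626, 368 and 461 in KO (log2 fold change -0.48 ± 0.17 (SE), limma adjusted p = 0.0414). The groups overlapped, and the call was lost without WT replicate 1 or 2 or KO replicate 2 or 3 (adjusted p = 0.0951 to 0.238). Its spleen CD11b DC libraries of KO mice, at 856 and 942, lay above WT at 618 and 439, short of the threshold (log2 fold change 0.78, adjusted p = 0.0619). In that cell type KO libraries were above all WT libraries for all 6 membrane genes, as for 24.5% of all tested genes, and none of the 6 passed the test. Wipi1 in alveolar macrophages was 73.1, 68.4 and 92.2 in WT against 23.0, 29.6 and 37.5 in KO, without overlap, and did not pass the test (log2 fold change -1.36 ± 0.62 (SE), adjusted p = 0.153). Atg2b had log2 fold changes of -0.17 to 0.46, Wipi2 of -0.30 to 0.23 and Vmp1 of -0.02 to 0.19.

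Conjugation genes encode the enzymes that attach ATG12 to ATG5 and then LC3 and GABARAP proteins to lipid. Atg12 rose in KO lung CD11b DCs and KO alveolar macrophages, and Atg5 rose in KO lung CD11b DCs, while none of the 11 was called lower in any cell type. In spleen CD11b DCs 6 of the 11 lay below all WT libraries in KO and 2 above, against 23.5% and 24.5% of all tested genes, and none of them passed. Atg12 counts in lung CD11b DCs were 272, 243 and 285 in WT against 517, 435 and 625 in KO (log2 fold change 0.96 ± 0.14 (SE), limma adjusted p = 2.63e-05). In alveolar macrophages they were 275, 342 and 347 in WT against 528, 518 and 529.8 in KO (log2 fold change 0.71 ± 0.14 (SE), adjusted p = 0.000802). With a term for Y-linked reads, which does not separate sex from genotype there, this log2 fold change was 0.75, with adjusted p = 0.0528. The groups did not overlap in either cell type, and the KO levels overlapped the 476, 549 and 482 of WT inflammatory DCs. Atg12 in spleen CD8a DCs was 486 and 362 in WT against 356 and 369.9 in KO, and in spleen CD11b DCs 416 and 463 in WT against 526 and 390.5 in KO, with overlap in both.

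Atg5 counts in lung CD11b DCs were 512, 430.3 and 476 in WT against 512, 706 and 838 in KO. KO replicates 2 and 3 were above WT and KO replicate 1 was level with the highest WT library (log2 fold change 0.51 ± 0.13 (SE), limma adjusted p = 0.00448, or 0.199 fitted on these libraries alone). In alveolar macrophages they were 1126, 1119 and 1175 in WT against 1143, 962 and 1004 in KO, and in inflammatory DCs 1246, 1237 and 1144 in WT against 1184, 1202 and 1279 in KO, with intervals of -0.40 to 0.12 and -0.25 to 0.28. Its partner Atg16l1 had log2 fold changes of -0.19 to 0.13, the E2-like enzyme genes Atg3 and Atg10 of -0.29 to 0.16 and -0.28 to 0.20, and Atg7 of -0.18 to 0.17.

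Atg16l2, a relative of Atg16l1, had 239 and 281 in WT against 392 and 477 in KO among spleen CD8a DCs. Its spleen CD11b DC values were 148 and 154 in WT against 187 and 244 in KO. The KO libraries lay above WT in both, without passing (limma adjusted p = 0.153 and 0.525). In lung CD11b DCs it was 198, 150.1 and 157 in WT against 120.1, 125 and 174 in KO, in alveolar macrophages 100.5, 67.3 and 91.1 in WT against 76.1, 133 and 139 in KO, and in inflammatory DCs 73.8, 75.9 and 68.0 in WT against 83.3, 79.6 and 107 in KO. Atg16l2 overlaps Fchsd2 on the opposite strand. Among the proteases, log2 fold changes were -0.61 to -0.08 for Atg4a, -0.34 to 0.14 for Atg4b, -0.21 to 0.18 for Atg4c and -0.48 to 0.34 for Atg4d. The most negative Atg4d value was in inflammatory DCs, where KO libraries, at 218, 180.4 and 185, lay below WT at 268, 289.9 and 253 (adjusted p = 0.0997).

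The LC3 and GABARAP proteins are the ubiquitin-like tags of the autophagosome membrane, and cells make several that differ in the cargo receptors they bind best. In KO, Gabarap rose in lung CD11b DCs and Gabarapl1 rose in alveolar macrophages and spleen CD11b DCs, whereas Map1lc3a fell in lung CD11b DCs and Map1lc3b fell slightly in alveolar macrophages. Gabarap counts in lung CD11b DCs were 2183, 1872 and 2202 in WT against 2779, 4296 and 3614 in KO, without overlap (log2 fold change 0.75 ± 0.12 (SE), limma adjusted p = 4.25e-05, or 0.0626 fitted on these libraries alone). In alveolar macrophages they were 3261, 3189 and 3309 in WT against 4450.1, 3855 and 3675 in KO, again without overlap but short of the threshold (log2 fold change 0.29, adjusted p = 0.0935). Spleen CD11b DCs had level counts, at 1464 and 1470.2 in WT against 1464 and 1509.6 in KO.

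Gabarapl1 in alveolar macrophages was 474, 458 and 501 in WT against 963, 824 and 849 in KO, so that every KO library was far above every WT library (log2 fold change 0.88 ± 0.17 (SE), limma adjusted p = 0.000546, or 0.37 with adjusted p = 0.415 with a term for Y-linked reads). That term was set largely by KO lung CD11b DC replicate 1 and does not separate sex from genotype in alveolar macrophages. In spleen CD11b DCs Gabarapl1 was 215 and 163 in WT against 338 and 345 in KO (log2 fold change 0.86 ± 0.21 (SE), adjusted p = 0.033). The groups did not overlap there either, but the call was lost on omission of WT replicate 2 or of any KO library (adjusted p = 0.193 to 0.413). With the Y-linked term, which does not separate sex from genotype in spleen DCs either, adjusted p was 0.762. In spleen CD8a DCs the counts were 219 and 202 in WT against 276 and 293 in KO, in lung CD11b DCs 294, 286 and 261 in WT against 452, 232 and 403 in KO, and in inflammatory DCs 811, 849 and 794 in WT against 1112, 954 and 873 in KO. KO exceeded WT without overlap in the first and last of these, and in lung CD11b DCs KO replicate 2 lay below every WT library. None of the 3 passed. Gabarapl1 overlaps the noncoding gene 1700101I11Rik on the opposite strand and Gm44243 on the same strand.

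Map1lc3b was 3856, 3916 and 3951 in WT against 3424, 3134 and 3371 in KO alveolar macrophages, without overlap (log2 fold change -0.24 ± 0.08 (SE), limma adjusted p = 0.0465). As for Becn1, omitting any single library ended the call (adjusted p = 0.0617 to 0.19), as did edgeR (0.0761). In the DCs it did not pass. Map1lc3b was 1258 and 1383 in WT against 1274 and 1269 in KO in spleen CD8a DCs, 1417 and 1623 in WT against 1451 and 1455 in KO in spleen CD11b DCs, 1762, 1629 and 1730.0 in WT against 1715, 1893 and 1485 in KO in lung CD11b DCs and 2558, 2559.8 and 2482 in WT against 2455, 2340.2 and 2319 in KO in inflammatory DCs. WT and KO overlapped in the first 3 and KO was lower in the last. The lowest and highest bounds of the 4 intervals (95%) of the log2 fold change were -0.27 and 0.16. Map1lc3b overlaps Zcchc14 on the opposite strand and the protein-coding gene Gm20388 on the same strand, which counting by strand would not separate.

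Map1lc3a in lung CD11b DCs was 112, 170.2 and 162 in WT against 128, 78.8 and 73.5 in KO, with overlap through KO replicate 1 (log2 fold change -0.68 ± 0.23 (SE), limma adjusted p = 0.0307). The call was lost without WT replicate 2 or 3 or KO replicate 2 or 3 (adjusted p = 0.0889 to 0.129). In alveolar macrophages Map1lc3a was 389.5, 445 and 454 in WT against 296, 281 and 304 in KO, without overlap, and did not pass (log2 fold change -0.54, adjusted p = 0.115). Gabarapl2 had log2 fold changes of -0.11 to 0.37.

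Taken per kilobase of annotated exon, Gabarap made up most of the family's transcripts in every group. The Gabarap share in lung CD11b DCs was 67.2% ± 2.17 (SD, n = 3) in WT and 77.3% ± 5.09 (SD, n = 3) in KO. The 2 LC3 genes went the other way there, Map1lc3b at 14.4% ± 0.463 (SD, n = 3) in WT and 9.77% ± 1.57 (SD, n = 3) in KO and Map1lc3a at 5.84% ± 1.45 (SD, n = 3) in WT and 2.59% ± 1.23 (SD, n = 3) in KO. In alveolar macrophages the share of Map1lc3b was 19.2% ± 0.204 (SD, n = 3) in WT and 14.3% ± 0.945 (SD, n = 3) in KO, and that of Gabarapl1 was 6.68% ± 0.2 (SD, n = 3) in WT and 10.8% ± 0.235 (SD, n = 3) in KO. WT and KO libraries did not overlap for any of these shares, which were given no test. Shares within the family sum to 100%, so a rise of one lowers the others, and they depend on the exon length used for each gene.

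**Figure D3:**
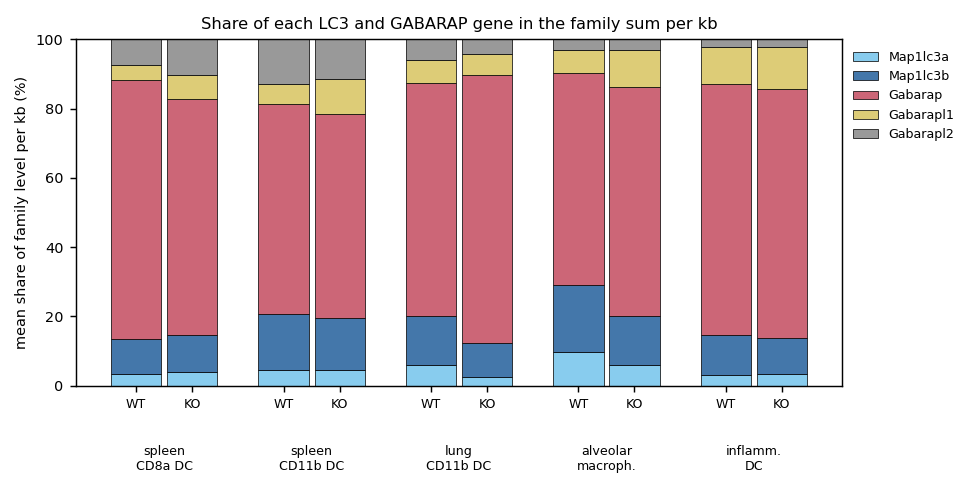
Bars give the mean share of each of the 5 LC3 and GABARAP genes in the family's summed level per kb, for WT and KO of each cell type. Gabarap is the largest segment in all 10 bars, and the LC3 segments are smaller in KO than in WT in lung CD11b DCs and alveolar macrophages.

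Cargo receptors tie ubiquitin-tagged proteins, microbes or mitochondria to the LC3 and GABARAP proteins. Of the 6, Optn, Tax1bp1 and Sqstm1 rose in KO lung CD11b DCs, Optn and Tax1bp1 in KO alveolar macrophages, and Bnip3 in KO inflammatory DCs, while Optn fell in KO spleen CD8a DCs. Optn encodes optineurin, a receptor for damaged mitochondria and bacteria. Its counts in lung CD11b DCs were 23.8, 20.1 and 54.0 in WT against 111, 176 and 274 in KO, and every KO library was above the highest WT library (log2 fold change 2.52 ± 0.36 (SE), limma adjusted p = 1.72e-05). In alveolar macrophages they were 132, 144 and 121 in WT against 347, 376 and 298 in KO, again far apart (log2 fold change 1.35 ± 0.36 (SE), adjusted p = 0.00998).

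In spleen CD8a DCs Optn was 24.0 and 44.6 in WT against 10.2 and 9.61 in KO (log2 fold change -1.63 ± 0.44 (SE), limma adjusted p = 0.0297). These are low counts, and the call was lost on omission of WT replicate 2 or of any KO library (adjusted p = 0.133 to 0.241) and with edgeR (0.0743). With the Y-linked term, which does not separate sex from genotype in spleen DCs, the log2 fold change was -0.56 (adjusted p = 0.779). Optn overlapped in spleen CD11b DCs, at 32.3 and 22.0 in WT against 42.4 and 20.4 in KO. Inflammatory DCs held more of it in WT than the untreated DCs, 308, 292 and 211, and less in each KO library, 183, 129 and 152 (log2 fold change -0.80 ± 0.36 (SE), adjusted p = 0.318). WT and KO did not overlap there, but the comparison did not pass. Optn overlaps the antisense gene 4930551O13Rik.

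Tax1bp1, a receptor for ubiquitin-tagged aggregates, was 2770.1, 2717 and 2699.8 in WT against 3113, 3541 and 3678 in KO lung CD11b DCs (log2 fold change 0.33 ± 0.08 (SE), limma adjusted p = 0.00438, or 0.0865 fitted on these libraries alone). In alveolar macrophages it was 3330.4, 3282 and 3411 in WT against 4458, 4548 and 4037 in KO (log2 fold change 0.38 ± 0.08 (SE), adjusted p = 0.00184). Both rises were small, and WT and KO libraries did not overlap in either cell type. In the other 3 cell types the log2 fold changes were 0.23, 0.04 and 0.16 in spleen CD8a, spleen CD11b and inflammatory DCs.

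Sqstm1 in lung CD11b DCs was 3176, 2477 and 1800.1 in WT against 3304, 3411 and 3272 in KO. The KO libraries were alike and above all WT libraries, which spread widely (log2 fold change 0.46 ± 0.15 (SE), limma adjusted p = 0.0267), and the call was lost without WT replicate 2 or 3 or KO replicate 2 or 3 (adjusted p = 0.0517 to 0.197). Spleen CD8a DCs held Sqstm1 at 2707 and 1962 in WT against 1755 and 1591 in KO, and in spleen CD11b DCs 1704 and 1371 in WT against 1683 and 1558 in KO. Alveolar macrophages held 4289, 4473 and 3863 in WT against 5617, 4682 and 4209 in KO, and inflammatory DCs 2889, 3250.1 and 2904 in WT against 3374, 3102 and 3060.5 in KO. Only the CD8a libraries were apart, with KO below WT, and none of these 4 comparisons passed (95% intervals, not adjusted for the number of genes, -0.84 to -0.08, -0.30 to 0.46, -0.12 to 0.50 and -0.23 to 0.39). Sqstm1 overlaps Mrnip on the opposite strand.

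Bnip3, a mitophagy receptor known as a hypoxia target, was 128, 155 and 121 in WT against 183, 293 and 324 in KO inflammatory DCs, without overlap (log2 fold change 0.95 ± 0.22 (SE), limma adjusted p = 0.0158). The call was lost without WT replicate 1 or 3 or KO replicate 2 or 3 (adjusted p = 0.068 to 0.106). In spleen CD8a DCs it was 66.8 and 99.3 in WT against 143 and 140.5 in KO, apart but not past the threshold (adjusted p = 0.0953), and in spleen CD11b DCs 86.1 and 92.3 in WT against 105 and 124 in KO. In lung CD11b DCs it was 104, 161 and 174 in WT against 163, 196 and 155 in KO, and in alveolar macrophages 255, 223 and 253 in WT against 242, 254 and 269.5 in KO, with overlap in both. The annotation holds a processed pseudogene, Bnip3l-ps, so reads it shares with Bnip3l are uncertain. Nbr1 and Bnip3l had log2 fold changes of -0.24 to 0.13 and -0.26 to 0.07, and neither passed in any cell type.

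**Figure D4:**
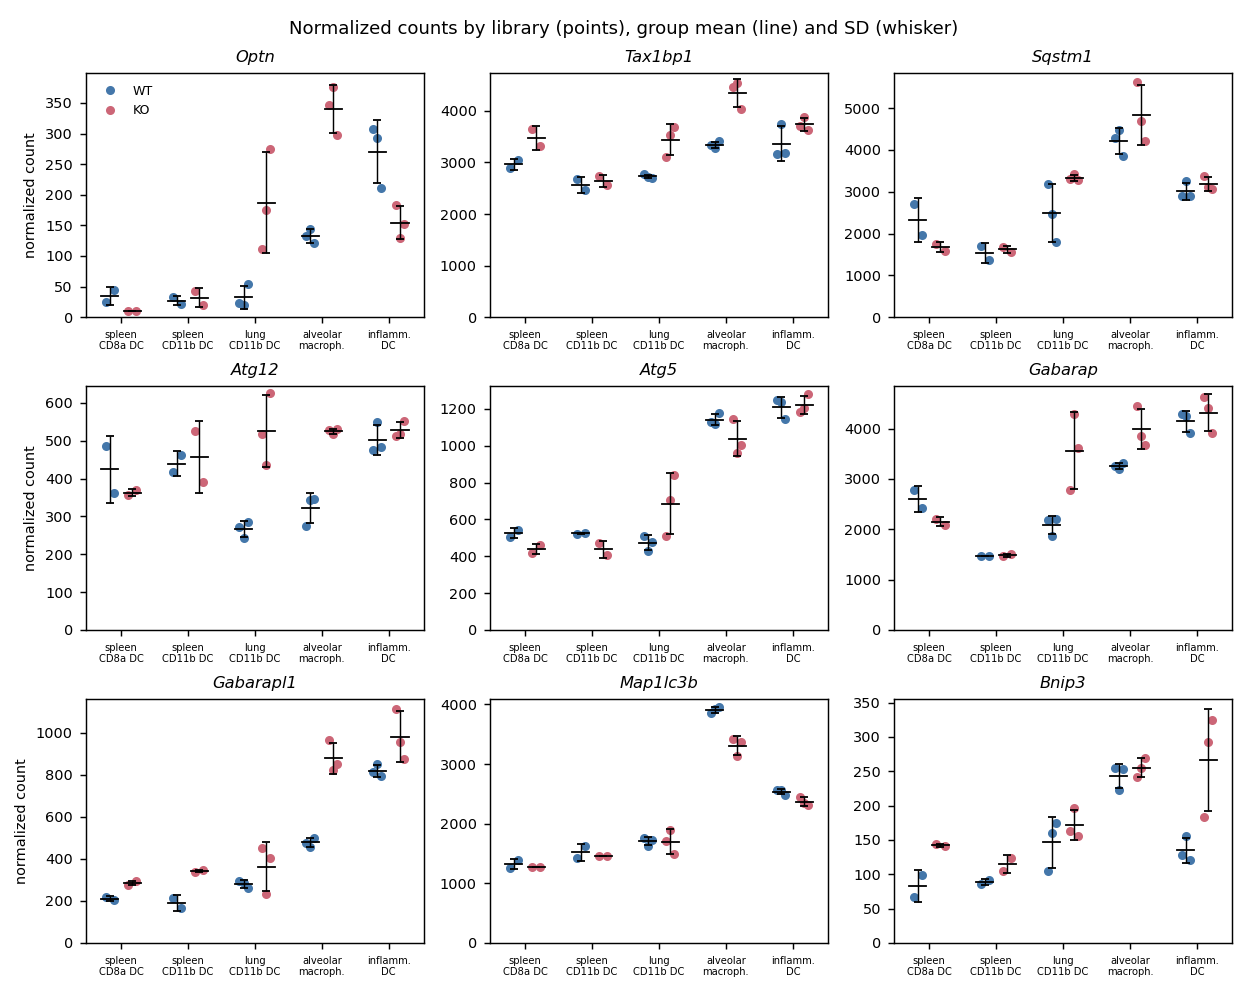
Each panel is 1 gene, with normalized counts by library as points (WT blue, KO red), the group mean as a line and the SD as whiskers, on axes that start at 0. KO points lie above all WT points in lung CD11b DCs and alveolar macrophages for Optn, Atg12, Tax1bp1 and Gabarap, and below them in inflammatory DCs for Optn.

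Fitted on the 6 lung CD11b DC libraries alone, 2 members were called in that comparison, Optn and Atg12 (and 6.43% of all genes). On the 6 alveolar macrophage libraries alone, 13 were called, including the 7 above (and 29% of all genes). The main fit shared its estimate of spread over all groups. Reads of replicate pairs were compared as a chi-square per gene, which is higher where replicates differ more. It was 31.7 to 41.3 in KO lung CD11b DCs and 2.99 to 3.42 in WT alveolar macrophages.

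The KO effect itself was compared between cell types. In lung against spleen CD11b DCs the effects differed for 9 of the 38 members, 4 higher and 5 lower in lung (23.7%, against 12.5% of all tested genes, 5.86% higher and 6.6% lower). Effects were more positive in lung for Optn (2.38 ± 0.57 (SE), limma adjusted p = 0.00781), Atg12 (0.92 ± 0.23 (SE), adjusted p = 0.00919), Gabarap (0.73 ± 0.18 (SE), adjusted p = 0.0103) and Atg5 (0.77 ± 0.20 (SE), adjusted p = 0.0134), differences of log2 fold changes. They were more negative for the membrane genes Atg2a (-1.26 ± 0.27 (SE), adjusted p = 0.00381), Atg9a (-1.24 ± 0.28 (SE), adjusted p = 0.00574) and Wipi1 (-3.13 ± 0.98 (SE), adjusted p = 0.0389) and for Pik3r4 (-0.70 ± 0.21 (SE), adjusted p = 0.0345) and Uvrag (-0.55 ± 0.18 (SE), adjusted p = 0.0471). For Atg2a, Atg9a, Wipi1, Pik3r4 and Atg5 the fitted effects had opposite signs in the 2 tissues. Without spleen CD11b DC WT replicate 2 or KO replicate 2 only 3 of the 9 remained in each case. The calls of Uvrag, Pik3r4 and Wipi1 were lost on 8, 7 and 6 of the 10 omissions of a single library (adjusted p up to 0.161, 0.122 and 0.29). With the Y-linked term none of the 38 was called (7 at an unadjusted p under 0.05, against 15.4% of all genes under that setting). That term was set largely by KO lung CD11b DC replicate 1, itself part of this comparison, so these losses do not test the part of sex.

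**Figure D5:**
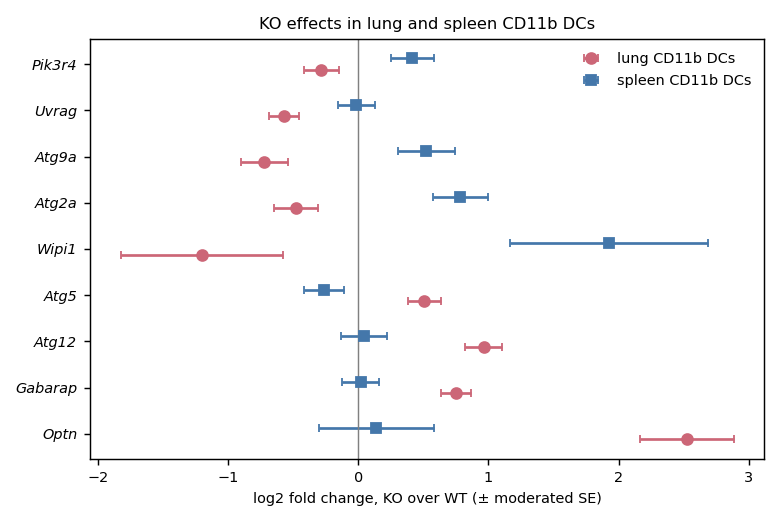
Points give the log2 fold change of KO over WT with its moderated standard error for the 9 members whose effect differed, in lung CD11b DCs (red circles) and spleen CD11b DCs (blue squares). Optn, Atg12, Gabarap and Atg5 lie to the right in lung and the other 5 to the left.

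Alveolar macrophages differed from lung CD11b DCs in their KO effect for 2 members (against 16.8% of all genes, 10.2% higher and 6.6% lower), Uvrag at 0.65 ± 0.16 (SE) and Atg5 at -0.65 ± 0.18 (SE) (limma adjusted p = 0.00703 and 0.0141). Left-out libraries moved that count between 2 and 7, the highest without lung CD11b DC KO replicate 1, and it was 0 with the Y-linked term (5 at an unadjusted p under 0.05, against 21.7% of all genes). Inflammatory DCs differed for 3 members (against 13% of all genes, 6.08% higher and 6.95% lower), all with a lower effect than in lung CD11b DCs. These were Optn at -3.32 ± 0.51 (SE), Atg12 at -0.89 ± 0.20 (SE) and Gabarap at -0.70 ± 0.16 (SE) (adjusted p = 0.000135, 0.00474 and 0.00637), and 9 members were called without lung CD11b DC KO replicate 1. The 3 comparisons against lung CD11b DCs share those libraries. Between the spleen DC types only Ulk1 differed (against 2.45% of all genes, 0.195% higher and 2.25% lower), at -1.43 ± 0.38 (SE) with adjusted p = 0.0474, and leaving out single libraries other than CD8a DC WT replicate 2 and CD11b DC WT replicate 1 ended that call (adjusted p = 0.105 to 0.354).

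Another 51 genes around the pathway, covering regulators, lysosome fusion and selective autophagy of organelles, were all tested. In lung CD11b DCs 12 rose and 7 fell in KO (37.3%, against 26.1% of all genes). The smallest p-values there were those of Irgm1, an interferon-induced GTPase, at 2.00 (adjusted p = 9.21e-09), Ccpg1, a receptor for the endoplasmic reticulum, at -1.12 (adjusted p = 1.69e-05), Lamp2, a lysosomal membrane protein, at 0.98 (adjusted p = 2.28e-05), and Pink1, a kinase that marks damaged mitochondria, at -1.26 (adjusted p = 2.72e-05), as log2 fold changes in limma. In alveolar macrophages 6 rose and 3 fell (17.6%, against 16.9%, near the background), led by the BECN1 binder Bcl2 at 3.13 (adjusted p = 4.93e-10), Irgm1 at 1.22 (adjusted p = 8.41e-06), Tecpr1 at 1.18 (adjusted p = 4.92e-05) and the ferritin receptor Ncoa4 at -0.63 (adjusted p = 0.000797). Among spleen CD8a DCs Dapk1 rose at 0.87 (adjusted p = 0.0318) and Wdfy3 fell at -0.75 (adjusted p = 0.00534), 2 of the 51 against 5.13% of all genes. In inflammatory DCs the endoplasmic reticulum receptor Fam134b rose at 0.80 (adjusted p = 0.000424), 1 of the 51 against 3.37% of all genes. In spleen CD11b DCs none of the 51 was called by limma (against 1.52% of all genes; 6, or 11.8%, were at an unadjusted p under 0.05, against 12.5% of all genes).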

How the data were processed

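Gene symbols in the deposited table carried normalized counts (a signal: the authors' counts divided by size factors, per the values) for 26 libraries. Per the submitters' processing notes STAR 2.3.1s, HTSeq (version not given), DESeq2 1.10.1 and mm10 were used. Annotation and strand setting are not given in the sources used here. Every column matched a sample by name. Multiplying by the size factors gave whole reads for 100% of values (within 1e-06 reads), from 7.37 to 14.1 M per library, which served for alternatives only.

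The values were analysed as log2(value + 1) in R 4.3.3 with limma 3.58.1 (moderated test with a mean-variance trend, two-sided). One fit held all 26 libraries with a mean per group. Genes with at least 10 in at least 2 libraries were kept, 13311 in all, and p-values were adjusted by Benjamini-Hochberg within each comparison, with calls under 0.05. Fold changes are on this scale, which understates the change of low genes. There were 5 comparisons of KO with WT, 4 between WT cell types and 4 differences of KO effects. The fit was run on simulated counts in which each gene had the same dispersion in every group, so unequal spread between groups was not tested.

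The alternatives were pseudocounts of 0.25 and 8, no filter, TMM rescaling, edgeR 4.0.16 and DESeq2 1.42.0 on recovered reads, only the groups compared, and each library left out. A term for Y-linked reads was chosen after seeing the data. It used a single slope for all groups, set largely by KO lung CD11b DC replicate 1 against the other KO libraries of that cell type. It therefore cannot separate sex from genotype where all KO libraries and no WT library held Y-linked reads. Exon lengths and positions are from GENCODE M21, upstream sequences from RefSeq. Python 3.11.15 with pandas 2.3.3 prepared the tables.

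The members and all gene lists were chosen with earlier results of these data known. Library values are given for Sqstm1, Map1lc3b, Gabarapl1, Ulk1, Bnip3 and Atg16l2 whatever they show, and for up to 6 called members with the smallest p per KO comparison. In the other comparisons up to 4 per direction are named, and of the other pathway genes up to 4 per KO comparison. Values of further members, among them Rb1cc1, Atg5, Map1lc3a, Atg2a, Becn1 and Wipi1, were added after they were seen. The LC3 and GABARAP proteins meant to be shown were not used here.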

Additional observations from a re-analysis of the deposited data

Results flagged for a closer look

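The effect of KO, as a log2 fold change, differed between cell types for the following genes by a test of the difference itself in limma. Each value is the effect in the first cell type minus that in the second. The markers and Y-linked reads that moved with genotype are given in the report, and their part in these differences was not tested.

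For lung minus spleen CD11b DCs the difference was 2.38 for Optn, 0.92 for Atg12, 0.77 for Atg5 and 0.73 for Gabarap. It was -3.13 for Wipi1, -1.26 for Atg2a, -1.24 for Atg9a, -0.70 for Pik3r4 and -0.55 for Uvrag. The Wipi1 value rests on spleen counts of 4.49 and 0 in WT and 8.01 and 7.77 in KO.

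For inflammatory DCs minus lung CD11b DCs the difference was -3.32 for Optn, -0.89 for Atg12 and -0.70 for Gabarap. For alveolar macrophages minus lung CD11b DCs it was 0.65 for Uvrag and -0.65 for Atg5. For spleen CD8a minus spleen CD11b DCs it was -1.43 for Ulk1.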

How the results depend on the processing

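No paired analysis was possible because the labels give only a running number over all libraries, and no replicate number shared between groups. Among refits of single genes, 1537 kept direction and side of the threshold, 191 lost and 2 gained a call, and 7 changed sign. Among refits of counts, 144 stayed within 1.5 times and 49 moved further. The cause of each move was not tested.

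In spleen CD8a DCs the KO count of 1 member became 0 with a pseudocount of 8, with edgeR, with only the compared groups and with the Y-linked term. In spleen CD11b DCs the count of 1 became 2 with DESeq2 and 0 with only the compared groups or the Y-linked term. With only the compared groups, lung CD11b DCs had a KO count of 2 in place of 11, alveolar macrophages 13 in place of 7 and inflammatory DCs 0 in place of 1. In that setting the WT counts were 2 of 6 between spleen DC types and 7 of 15 for lung against spleen, and all differences of KO effects except inflammatory against lung CD11b DCs fell to 0. The difference between spleen DC types was also 0 without the filter and with edgeR. The Y-linked term was chosen after seeing the data and was set largely by KO lung CD11b DC replicate 1. With it the counts of differences were 0 for lung minus spleen and for alveolar macrophages minus lung CD11b DCs. The count was 8 for inflammatory minus lung CD11b DCs, which was 5 with DESeq2.

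With each library left out in turn, the KO counts were 0 to 1 in spleen CD8a DCs, 0 to 3 in spleen CD11b DCs (3 without WT replicate 1), 8 to 13 in lung CD11b DCs, 5 on each omission in alveolar macrophages and 0 to 1 in inflammatory DCs. The WT counts were 3 to 6 between spleen DC types (3 without CD8a replicate 1), 9 to 14 for lung against spleen, 19 to 22 for alveolar macrophages and 18 to 21 for inflammatory DCs. The differences gave 0 to 1 between spleen DC types, 3 to 11 for lung minus spleen, 2 to 7 for alveolar macrophages minus lung CD11b DCs and 3 to 9 for inflammatory minus lung CD11b DCs.

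The sign changes were all of uncalled values except that of Atg9a. For Map1lc3b the left-out range was -0.12 to 0.0155 in spleen CD8a DCs, -0.16 to 0.0363 in spleen CD11b DCs and -0.0964 to 0.0787 in lung CD11b DCs (0.00875 without WT replicate 1). For Sqstm1 in spleen CD11b DCs it was -0.0733 to 0.24. With the Y-linked term, Gabarapl1 in spleen CD8a DCs was -0.133, and Atg9a in WT inflammatory against lung CD11b DCs was -0.0273. Groups of 2 or 3 libraries limit the precision, and values near 0, as for Wipi1 and Optn in spleen, carry counting error.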
